A study of Mus musculus with 8 samples.

Results

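Acute-phase proteins are secreted in large amounts during inflammation. The genes described here are 8 acute-phase and inflammation-induced genes that colon tissue can make itself, chosen by name: the serum amyloid A genes Saa1, Saa2 and Saa3, the lipocalin Lcn2, haptoglobin (Hp), leucine-rich alpha-2-glycoprotein 1 (Lrg1) and the chitinase-like genes Chil1 and Chil3. All 8 were among the 18262 genes of the deposited table. They were measured by RNA sequencing of colon from wild-type mice given DSS (dextran sulfate sodium), which damages the lining of the colon and so causes colitis. One group of 4 libraries had DSS alone, and the other group of 4 libraries (DSS + GAA) also had ganoderic acid A, GAA, at 20 mg/kg, a lanostane triterpenoid made by Ganoderma fungi. Both groups thus carry the colitis model, and no healthy level is given, since colon without DSS was not analysed here. The treatment labels of the 4 DSS + GAA libraries read 20, 21, 22 and 23 mg/kg while their titles give 20, and the 4 were kept as 1 group. Strain, age, sex, and the course of DSS and GAA are not given in the sources used here. The libraries of each group are numbered 1, 2, 4 and 5. The labels do not say that each is a separate mouse, so the tests measure the spread between these samples, which may be technical.

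The liver is the main source of acute-phase proteins in blood, where interleukin 6 (IL-6) and interleukin 1 (IL-1) induce them through the transcription factors STAT3, C/EBP and NF-kappa-B. Several are also made at the site of inflammation. Epithelial cells of the gut make serum amyloid A and lipocalin 2 in response to microbes and to IL-17 and IL-22, and neutrophils, macrophages and stromal cells make Lcn2, Hp, Saa3, Chil1 or Chil3. In mice, lipocalin 2 protein in stool is a common measure of colitis.

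Values are TPM, the transcript levels that result from dividing reads by transcript length and by the library's total, so levels of different genes can be set side by side. A gene was tested where 4 or more of the 8 libraries had a TPM of 1 or more. All 8 genes met this, among 14217 that did. Changes are log2 fold changes of DSS + GAA over DSS on the log2(TPM + 1) scale with their standard error, and a change was called where limma's adjusted p over all tested genes was under 0.05. Of the 8 genes, 5 fell and 0 rose, beside 28.2% of all tested genes that fell and 5.96% that rose (34.1% in either direction). Saa3, Lcn2, Chil1 and Hp each fell by more than 3 on the log2 scale, and Saa2 fell by 0.64, while Saa1, Chil3 and Lrg1 did not pass. Of all tested genes 9.86% fell by 1 or more, as did 4 of the 8, and 0.281% (40 genes) fell by 3 or more. In 27.6% of all tested genes every DSS + GAA library lay below every DSS library, as for Saa2, Saa3, Lcn2, Chil1 and Hp. In 5.31% every DSS + GAA library lay above. The median change of the 8 was -2.60, beside -0.25 for all tested genes. Because the median of all tested genes was below 0, changes were also read after other scalings between libraries. The fallers and risers over all genes, 4006 and 847 here, became 1820 and 1804 under trimmed mean scaling. They became 1601 and 1677 under quantile normalization, and 1308 and 2165 under median centring. With 1 library left out they numbered 1676 to 4435 and 361 to 1277, both lowest without DSS replicate 1.

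**Figure D1:**
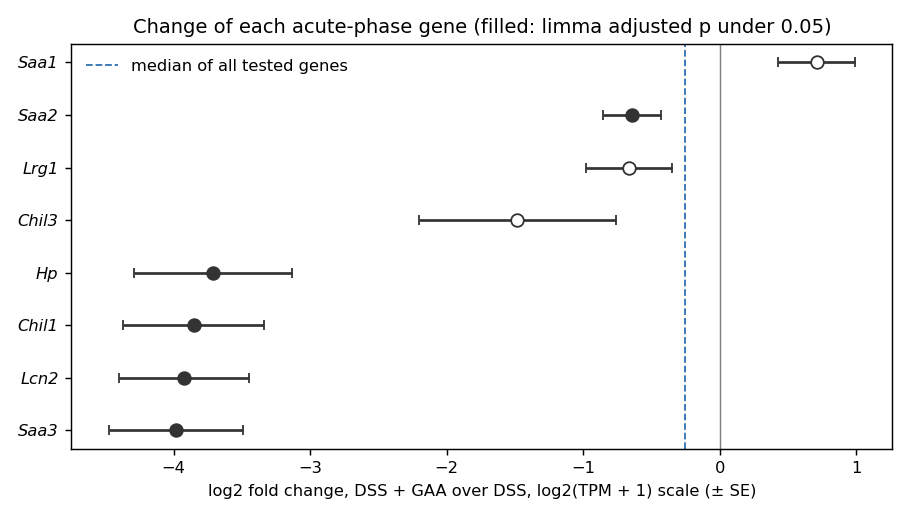
Log2 fold change of DSS + GAA over DSS for each of the 8 genes on the log2(TPM + 1) scale, with standard error. Filled points have a limma adjusted p under 0.05 and the dashed line is the median of all tested genes (-0.25); Saa3, Lcn2, Chil1 and Hp lie between -3.98 and -3.71, and Saa1 is the sole point right of 0.

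Serum amyloid A proteins are small apolipoproteins that bind high-density lipoprotein and retinol. Saa1, Saa2 and Saa3 lie in 1 cluster on chromosome 7 (GRCm38, GENCODE vM21, all protein coding): Saa3 at chr7:46711998-46715700 and Saa1 at chr7:46740497-46742980 on the minus strand, and Saa2 at chr7:46751790-46754313 on the plus strand. Saa1 and Saa2 are divergent neighbours whose ends are 8809 bases apart. Saa3 lies 24796 bases from Saa1, with Saa4 between them. Saa1 and Saa2 are close copies, also upstream of their start sites. Their upstream sequences are printed because these neighbours had different levels and moved apart between the groups. Each runs from base -250 to base -51 of the RefSeq start site (RefSeq, GRCm38.p6), and capitals mark the bases that differ between the pair: Saa1 at chr7:46743031-46743230, minus strand, and Saa2 at chr7:46751583-46751782, plus strand.
Saa1: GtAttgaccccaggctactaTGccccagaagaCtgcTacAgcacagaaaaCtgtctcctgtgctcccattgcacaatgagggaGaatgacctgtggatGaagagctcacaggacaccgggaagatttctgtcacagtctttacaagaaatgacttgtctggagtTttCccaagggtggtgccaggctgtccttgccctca
Saa2: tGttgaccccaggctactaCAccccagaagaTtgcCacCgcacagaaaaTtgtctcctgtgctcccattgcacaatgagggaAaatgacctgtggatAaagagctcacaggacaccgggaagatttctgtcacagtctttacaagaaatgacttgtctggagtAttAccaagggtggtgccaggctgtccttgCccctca
Over the 250 bases upstream, the pair was identical at 238 of 251 aligned positions (94.8%), with 11 mismatches and 2 gap positions, while Saa1 and Saa3 were identical at 52.9%. The transcripts of Saa1 and Saa2 (1 GENCODE transcript of each) were identical at 93.9% of 609 aligned positions. Of the stretches of 50 bases in the Saa1 transcript, 74 of 560 (13.2%) also occur letter for letter in Saa2, and of those of 150 bases, the read length, 0 of 460. How the authors counted reads that match both was not stated in the labels or notes, so the split between Saa1 and Saa2 is uncertain.

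Saa1 was by far the most abundant of the 8 genes. Its level was 3856, 5714, 7052 and 10559.6 TPM in DSS replicates 1, 2, 4 and 5, and 11892, 10077, 8848 and 11069 TPM in DSS + GAA replicates 1, 2, 4 and 5. The groups overlapped, because DSS replicate 5 lay inside the DSS + GAA range while the other 3 DSS libraries lay below it. Ranked among all 18262 genes, Saa1 stood between place 6 and 15 in the DSS libraries and between place 5 and 8 in the DSS + GAA libraries, and it made up 0.386% to 1.19% of a library's TPM total. The means were 6796 ± 2831 and 10471 ± 1312 TPM (SD, n = 4 each), a log2 fold change of 0.71 ± 0.28 that did not pass (limma adjusted p = 0.0793). Relative to the median of all genes it was 0.96. The change passed under trimmed mean scaling (0.98, limma adjusted p = 0.0431), under median centring (1.01, adjusted p = 0.0450) and without DSS replicate 5 (0.95, adjusted p = 0.0220).

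Saa2 was far less abundant than its neighbour. It stood at 7.49, 7.02, 5.80 and 10.5 TPM in the DSS libraries and at 5.30, 5.62, 3.38 and 3.91 TPM in the DSS + GAA libraries, in the same order of replicates. The groups did not overlap, but the lowest DSS value (5.80) and the highest DSS + GAA value (5.62) nearly met. The means were 7.70 ± 2.00 and 4.55 ± 1.08 TPM (SD, n = 4 each), and Saa2 fell by 0.64 on the log2 scale (SE 0.21, limma adjusted p = 0.0425). The call was lost under 12 of 19 alternatives, with adjusted p between 0.0304 and 0.453 over all of them and the change between -0.75 and -0.21. Among these were the 3 other scalings (adjusted p = 0.173, 0.453 and 0.281 for trimmed mean, quantile and median), and leaving out DSS replicates 1 (0.102), 2 (0.0668) and 5 (0.0980), and replicates 2 (0.0571), 4 (0.101) and 5 (0.0906) of the DSS + GAA group, each in turn. Saa2 amounted to 0.0823% to 0.194% of the Saa1 level in the DSS libraries and to 0.0353% to 0.0558% in the DSS + GAA libraries.

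Saa3, the serum amyloid A gene that mouse macrophages, adipocytes and epithelium make outside the liver, was far higher in the DSS group. It stood at 1812, 1225, 563 and 405 TPM in DSS replicates 1, 2, 4 and 5, and at 94.3, 58.0, 30.0 and 45.7 TPM in the DSS + GAA libraries. Every DSS library lay above every DSS + GAA library, and DSS replicate 1 was 4.48 times DSS replicate 5. The means were 1001 ± 647 and 57.0 ± 27.4 TPM (SD, n = 4 each), a ratio of 17.6, and Saa3 fell by 3.98 on the log2 scale (SE 0.49, limma adjusted p = 0.00460). Its upstream sequence (chr7:46715727-46715926, minus strand, bases -250 to -51, RefSeq, GRCm38.p6) is printed for contrast with the other pair, with a C/EBP match in capitals.
Saa3: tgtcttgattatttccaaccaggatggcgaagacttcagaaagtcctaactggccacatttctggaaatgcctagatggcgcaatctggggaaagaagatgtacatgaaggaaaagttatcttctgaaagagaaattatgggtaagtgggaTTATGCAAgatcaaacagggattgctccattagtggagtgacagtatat
Within each library, Saa1 was 2.13, 4.66, 12.5 and 26.1 times Saa3 in the DSS group, and 126, 174, 295 and 242 times Saa3 in the DSS + GAA group. Saa1 was 515, 814, 1215 and 1005 times Saa2 in the DSS group and 2243, 1793, 2622 and 2830 times in the DSS + GAA group. Neither ratio overlapped between the groups. Such ratios within a library do not depend on the scaling between libraries. They show unequal change, not which gene was unchanged.

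**Figure D2:**
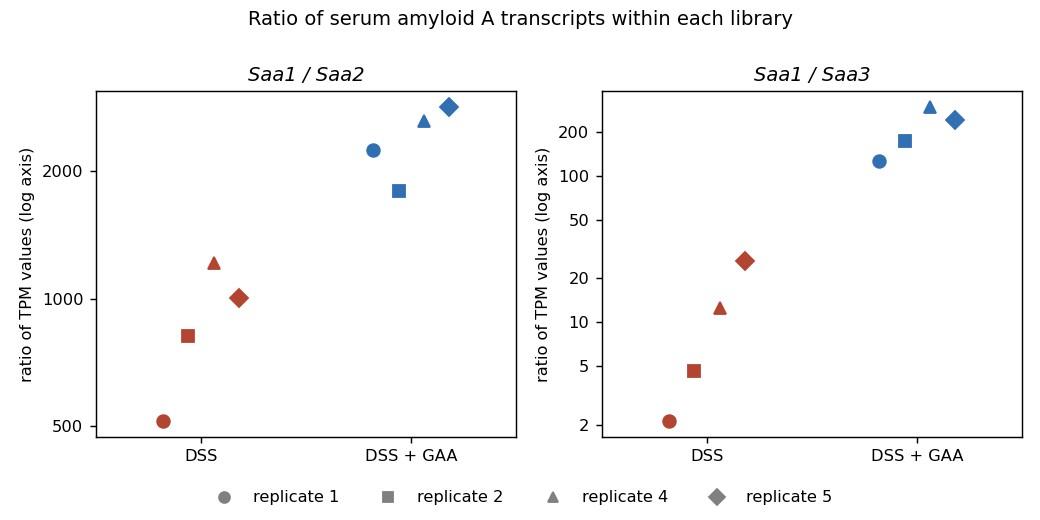
Ratio of Saa1 to Saa2 and of Saa1 to Saa3 TPM in each library (log axes), with 1 point per library and its shape giving the replicate number. Both ratios were higher in all 4 DSS + GAA libraries than in any DSS library, with the ratio to Saa3 rising from at most 26.1 to at least 126.

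Lcn2 encodes lipocalin 2, which binds bacterial siderophores and so withholds iron from microbes (chr2:32384633-32388252, minus strand). It stood at 862, 417, 212 and 196 TPM in the DSS libraries and at 34.7, 24.5, 11.9 and 23.1 TPM in the DSS + GAA libraries. The groups did not overlap, and the order of the DSS libraries was that of Saa3. Lcn2 fell by 3.93 (SE 0.48, limma adjusted p = 0.00460), a ratio of means of 17.9. Saa3 was 2.06 to 2.94 times Lcn2 in the DSS libraries and 1.98 to 2.71 times in the DSS + GAA libraries, so the ratio of these genes overlapped between groups that differed by over 3 log2 units in each of them.

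Hp encodes haptoglobin, the plasma protein that binds free haemoglobin (chr8:109575128-109579172, minus strand). It stood at 326, 178, 172 and 78.0 TPM in the DSS libraries and at 28.9, 19.5, 7.21 and 4.41 TPM in the DSS + GAA libraries. The groups did not overlap, and replicate 1 was the highest in each. Hp fell by 3.71 (SE 0.58, limma adjusted p = 0.00531), a ratio of means of 12.6. Haemoglobin protein, the ligand of haptoglobin, was not measured. At the RNA level, of 5 tested red blood cell genes 5 fell and 0 rose, beside 28.2% and 5.96% of all tested genes. Their list summed to 191 to 388 TPM in the DSS libraries and to 9.88 to 63.6 TPM in the DSS + GAA libraries. Whether blood in the tissue has a part in the Hp values was not tested.

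Lrg1 encodes a leucine-rich glycoprotein that modulates TGF-beta signalling in blood vessels and is used as a serum marker of colitis (chr17:56119678-56122001, minus strand). It stood at 177, 199, 142 and 278 TPM in the DSS libraries and at 71.6, 106, 140.0 and 204 TPM in the DSS + GAA libraries. The groups overlapped, with DSS + GAA replicate 5 above 3 of the 4 DSS libraries. Its change of -0.67 ± 0.32 was not called (limma adjusted p = 0.129), but passed without DSS + GAA replicate 5 (-0.91, adjusted p = 0.0413).

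**Figure D3:**
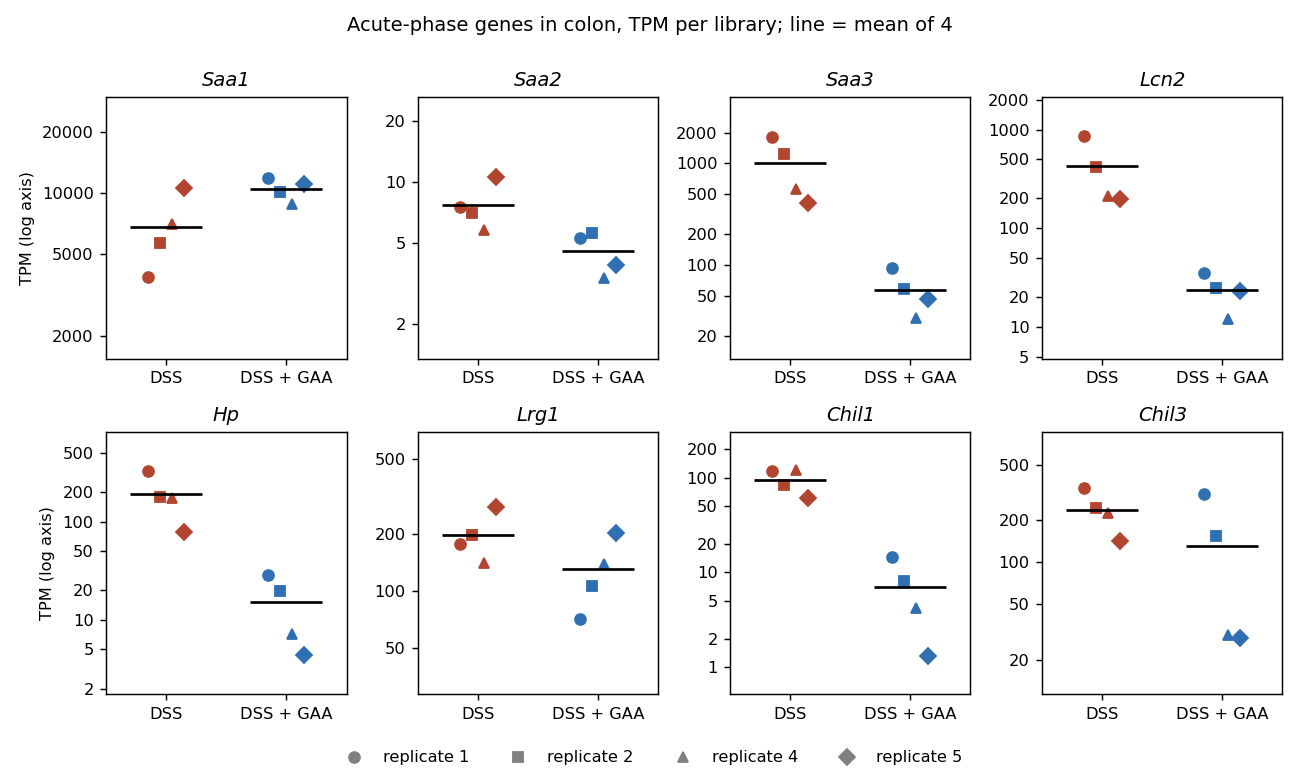
TPM of each gene in each library (log axis, 1 panel per gene with its own range), with points shaped by replicate number and a line at the mean of 4 libraries. The groups are apart for Saa3, Lcn2, Hp and Chil1, nearly touch for Saa2 (5.80 and 5.62 TPM), and overlap for Saa1, Lrg1 and Chil3. Of all tested genes, 27.6% did not overlap with DSS + GAA lower and 5.31% with DSS + GAA higher.

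Chil1 and Chil3 encode chitinase-like proteins, which keep the chitin-binding fold but cannot cut chitin. Chil1 (chr1:134182176-134190181, plus strand) is the mouse gene of the protein known in humans as YKL-40. Its upstream sequence (chr1:134181906-134182105, plus strand, bases -250 to -51, RefSeq, GRCm38.p6) is printed because it was the one window with both kB matches described below, which are in capitals.
Chil1: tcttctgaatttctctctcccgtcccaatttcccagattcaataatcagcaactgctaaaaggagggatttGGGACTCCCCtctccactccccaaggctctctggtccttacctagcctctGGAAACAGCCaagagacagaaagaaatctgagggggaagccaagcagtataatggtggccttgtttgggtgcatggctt
Chil1 stood at 117, 83.2, 121 and 60.7 TPM in the DSS libraries and at 14.5, 8.13, 4.27 and 1.31 TPM in the DSS + GAA libraries. The groups did not overlap, and the DSS + GAA libraries differed among themselves by a factor of 11.1. Chil1 fell by 3.85 (SE 0.52, limma adjusted p = 0.00508), a ratio of means of 13.5.

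Chil3, also called Ym1, is a product of alternatively activated macrophages and of neutrophils (chr3:106147554-106167564, minus strand). It stood at 343, 243, 224 and 142 TPM in the DSS libraries and at 310.0, 155, 30.0 and 28.5 TPM in the DSS + GAA libraries. DSS + GAA replicates 1 and 2 lay inside the DSS range and replicates 4 and 5 lay far below it. Its change of -1.48 ± 0.72 was not called (limma adjusted p = 0.139), but passed without DSS + GAA replicate 1 (-2.13, adjusted p = 0.0155). Chil3 was 1.85 to 2.94 times Chil1 in the DSS libraries and 7.03 to 21.8 times in the DSS + GAA libraries. The near copy of Chil3, Chil4, was below 1 TPM in every library (at most 0.34). Their transcripts were identical at 94.2% of 1543 aligned positions. Of the stretches of 50 bases in the Chil3 transcript, 275 of 1490 (18.5%) also occur letter for letter in Chil4, and of those of 150 bases, 0 of 1390. How reads that match both were counted was not stated, so some could be split between them. Summed, the pair changed by -1.48 (limma adjusted p = 0.139).

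The motifs C/EBP, STAT, relaxed kB and NF-kappa-B consensus were searched on both strands in the 250 bases upstream of the 7 genes with a RefSeq promoter entry, after the sequences had been seen. The C/EBP motif TTGCNNAA was found in Saa1 (TTGCACAA, bases -182 to -175), Saa2 (TTGCACAA, -183 to -176), Saa3 (TTATGCAA as read on the gene's strand, -99 to -92) and Lcn2 (TTGCTCAA, -216 to -209), and 9.56% of 32851 promoters hold it. The relaxed kB motif was found in Saa1 (GGAGTTTTCC, -91 to -82) and Chil1 (GGAAACAGCC as read on the gene's strand, -129 to -120), beside 4.63% of promoters. In Saa2 the aligned bases differ from that Saa1 match by T165A and C168A, with Saa1's base first and positions counted from the first printed base of Saa1. The NF-kappa-B consensus was found in Chil1 (GGGACTCCCC, -179 to -170), beside 7.25% of promoters, and the STAT motif TTCNNNGAA in Chil3 (TTCTTAGAA, -172 to -164), beside 7.02%. A match is a stretch of letters and not a measured binding site.

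The 8 genes were compared with each other through the difference of their log2(TPM + 1) values within each library. This cancels the scaling between libraries nearly in full for abundant genes, but only in part for low ones such as Saa2. Of the 28 pairs, 17 differed in response between the groups at the smallest p that the two-sided exact permutation test allows over 70 assignments (p = 0.0286, Benjamini-Hochberg adjusted p = 0.0471 over the 28 pairs). Saa3 minus Saa1 was -2.91 ± 1.59 in the DSS group and -7.61 ± 0.53 in the DSS + GAA group (SD, n = 4 each), a difference of -4.69. Saa1 minus Saa2 was 9.54 ± 0.53 and 10.9 ± 0.24, a difference of 1.35, and Chil1 minus Chil3 differed by -2.37. The 11 pairs that did not pass included all 6 among Saa3, Lcn2, Hp and Chil1, whose differences in response lay between -0.27 and 0.13. Among them Lcn2 minus Saa3 differed by 0.06, with SD 0.25 and 0.19 in the groups. A p that misses the threshold does not show that these genes responded alike. Another 3 were the pairs among Lrg1, Chil3 and Saa2, and the rest were Lrg1 with Hp (3.05, exact permutation adjusted p = 0.0889) and Chil3 with Saa1 (-2.19, exact permutation adjusted p = 0.126). None of the 17 calls held in every setting. With a pseudocount of 5, 16 pairs reached the smallest p, its adjusted value was 0.05, and 0 pairs passed. With 1 library left out (35 assignments, smallest exact permutation p = 0.0286 again), 10 to 15 pairs reached it, the smallest adjusted p was 0.0533 to 0.08, and 0 pairs passed whichever library was left out.

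The libraries within a group were ordered alike by several of the genes. DSS replicate 1 was the highest DSS library for Saa3, Lcn2, Hp and Chil3 and the lowest for Saa1. DSS replicate 5 was the lowest for Saa3, Lcn2, Hp, Chil1 and Chil3 and the highest for Saa1, Saa2 and Lrg1. In the DSS + GAA group, replicate 1 was the highest for Saa1, Saa3, Lcn2, Hp, Chil1 and Chil3 and the lowest for Lrg1. Among all tested genes, the profile most like that of Saa3 over the 8 libraries was Mmp8, a collagenase of neutrophils, with a root mean square difference of 0.20 log2 units between centred profiles. Mmp8 was also nearest to Lcn2 (0.26), ahead of Marco, a scavenger receptor of macrophages (0.36). Chil1 was nearest to Mmp3, stromelysin (0.25), and Hp to Kcne4, a potassium channel subunit (0.22). The 50 genes nearest to Saa3 held Lcn2, Hp and Chil1, and those nearest to Hp held Chil1, Saa3 and Lcn2. Those nearest to Lcn2 held Saa3 and Hp but not Chil1, and those nearest to Chil1 held Hp and Saa3 but not Lcn2. The profiles include the difference between the groups, so genes with changes of like size lie near each other for that reason alone. Saa1 was nearest to Sval1 (0.10), which stood at 1427 and 2097 TPM in the groups with no call (log2 fold change 0.65, limma adjusted p = 0.0915), and no other of the 8 was among its nearest 50. Saa2, Lrg1 and Chil3 were nearest to Susd4 (0.08), Coq8a (0.17) and Igfbp4 (0.38). Genes with little change over the 8 libraries lie close to many others, so these distances cannot be compared between genes.

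The authors' deposited table gives its own log2 fold changes and false discovery rates (FDR) for the same groups; the labels and notes do not name its test. Saa3 (-4.13), Lcn2 (-4.16), Chil1 (-3.76) and Hp (-3.65) were lower in the authors' deposited table with FDR of 1.93e-22 or less. In the authors' deposited table Saa1 was higher (0.62, FDR 0.0125), while Saa2 (-0.76, FDR 0.292), Chil3 (-0.86, FDR 0.188) and Lrg1 (-0.61, FDR 0.443) were not under 0.05. The authors' deposited table thus called 4 of the 8 lower and 1 higher, beside 16.2% and 10.3% of its 18262 genes. Saa1 and Saa2 are the genes on which it differs from the limma calls above.

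Other acute-phase proteins were read from a list of 30 genes, of which 29 were in the table and 18 were tested. Of these, 12 fell and 1 rose, with a median change of -1.73. The counts of this and the further lists stand beside 28.2% of all tested genes lower and 5.96% higher, with a median of -0.25. Slc39a14, the zinc importer that IL-6 induces, fell from 56.2 ± 25.5 to 13.0 ± 0.65 TPM (SD, n = 4 each; log2 fold change -1.94, limma adjusted p = 0.00460). Mt2, a zinc-binding metallothionein, fell from 2498 to 309 TPM (-2.88, limma adjusted p = 0.00510), and Itih3, which binds hyaluronan in serum, fell from 8.86 to 2.06 TPM (-1.76, limma adjusted p = 0.00604). Cfb, complement factor B, was the riser (203 to 314 TPM, 0.63, limma adjusted p = 0.0103). Complement C3 was not called (299 and 150.3 TPM, -0.84, limma adjusted p = 0.0843), nor was Saa4, the constitutive serum amyloid A of the same cluster (1.63 and 1.42 TPM, -0.16, limma adjusted p = 0.681); both were chosen after their values were seen. Crp, Itih4 and Hamp, further acute-phase products of the liver, stayed below 1 TPM in every library. Other such genes were untested but present in DSS libraries. Orm1 stood at 0.647 to 10.0 TPM in the DSS libraries and at most 0.212 TPM in the DSS + GAA libraries. For Orm2 the values were 0 to 19.9 TPM and at most 0.394 TPM. Fgg reached 5.42 TPM in DSS replicate 1 and at most 0.073 TPM in the DSS + GAA group.

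Of 13 tested cytokines that induce acute-phase genes, 8 fell and 1 rose, with a median of -1.03. Il6 stood at 14.1 to 113 TPM in the DSS libraries and at 0.84 to 3.97 TPM in the DSS + GAA libraries, and fell by 4.19 on the log2 scale (SE 0.60, limma adjusted p = 0.00510). Il1a fell from 34.5 to 5.07 TPM (-2.49, limma adjusted p = 0.00510). Ifng, interferon gamma, was the riser (1.21 to 11.5 TPM, 2.34, limma adjusted p = 0.00554). The fallers numbered 5 under quantile normalization or median centring, and also 5 on leaving out DSS replicate 1. With DSS + GAA replicate 5 left out, 2 genes rose. With Ifng below the stricter filter of 5 TPM, 0 rose.

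Of 19 receptor genes of these cytokines, 8 fell, 1 rose and 10 were not called, with a median of -0.41. Over all tested genes 28.2% fell and 5.96% rose, with a median of -0.25. Il17rc, a receptor subunit for IL-17A and IL-17F, rose from 38.5 to 85.5 TPM (1.14, limma adjusted p = 0.00460). Il1r2, the decoy receptor of IL-1, fell from 75.7 to 7.05 TPM (-3.37, limma adjusted p = 0.00585). Fallers numbered 5, 3 and 3 under trimmed mean, quantile and median scaling, and 2 on leaving out DSS replicate 1. Leaving out replicate 4 of the DSS group left 5, as did replicate 4 of the DSS + GAA group. The risers numbered 4, 2 and 4 under the 3 scalings, and 2 on leaving out DSS replicate 4 as well as DSS + GAA replicate 1 in turn.

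Of 22 transcription factors and feedback regulators of the response, 8 fell, 3 rose and 11 were not called, with a median of -0.31. That median was near the -0.25 of all tested genes, of which 28.2% fell and 5.96% rose. Cebpd, a C/EBP factor induced in the acute phase, fell from 92.3 to 22.8 TPM (-1.93, limma adjusted p = 0.00460), and Rel, an NF-kappa-B subunit, fell from 41.1 to 13.2 TPM (-1.52, limma adjusted p = 0.00510). Stat3, which carries the IL-6 signal, fell from 132 to 84.9 TPM (-0.64, limma adjusted p = 0.00810; 0.0664 under median centring). Among the risers were Socs1, a feedback inhibitor of cytokine signalling, and Hnf4a, a transcription factor of liver and gut epithelium. The counts were 5 lower and 6 higher under trimmed mean scaling, 3 lower and 6 higher under median centring, 5 higher under quantile normalization and 1 higher without DSS replicate 1.

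Of 27 receptors and ligands of the 8 proteins, 15 fell and 2 rose, with a median of -0.87. Fpr1, a formyl peptide receptor of neutrophils, fell from 34.6 to 5.31 TPM (-2.67, limma adjusted p = 0.00570). Ager, the receptor for advanced glycation end products, fell from 6.62 to 1.88 TPM (-1.35, limma adjusted p = 0.00695), and Cd36, a scavenger receptor that binds serum amyloid A, fell from 56.7 to 18.7 TPM (-1.69, limma adjusted p = 0.00892). Slc40a1, the iron exporter ferroportin, and Lgals3, a galectin, rose. The fallers numbered 8, 7 and 6 under trimmed mean, quantile and median scaling, 6 on leaving out DSS replicate 1 and 9 on leaving out replicate 4 of the DSS + GAA group. Leaving out a single library gave 0 risers for DSS replicate 1 and for replicate 2 of the DSS + GAA group, and 1 riser for DSS replicates 2 and 5 and for replicates 4 and 5 of the DSS + GAA group. Of the 4 tested genes of the chitinase family besides Chil1 and Chil3, Ovgp1 fell (2.36 to 0.89 TPM, -0.80, limma adjusted p = 0.0235). That call was lost under the 3 other scalings (adjusted p up to 0.296), and on leaving out any of DSS replicates 1, 2 and 5 and of replicates 2 and 4 of the DSS + GAA group.

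In bulk tissue, fewer cells of a type and less RNA per cell cannot be told apart, so marker lists are given beside the 8 genes. Of 17 tested neutrophil markers, 13 fell and 1, Cd177, rose (median -2.44), while Ly6g, Ltf and Csf3r were not called. The list summed to 4751 to 11124 TPM in the DSS libraries and to 1588 to 4497 TPM in the DSS + GAA libraries. Much of this sum was Ly6g, at 2441 to 4470 TPM in the DSS libraries and 1137 to 3659 TPM in the DSS + GAA libraries. S100a9, a subunit of calprotectin, fell from 2074 to 93.8 TPM (-4.52, limma adjusted p = 0.00425), and Retnlg, a neutrophil resistin-like gene, fell from 314 to 8.16 TPM (-5.10, limma adjusted p = 0.00425). Ly6g, the common surface marker of mouse neutrophils, was not called (3225 ± 909 and 2238 ± 1102 TPM, SD, n = 4 each; -0.62, limma adjusted p = 0.195). Ly6g passed without DSS + GAA replicate 1 (-0.90, adjusted p = 0.0346). The granule gene Mpo and Padi4 were below 1 TPM in every library. The fallers numbered 8 with the filter at 5 TPM, and the risers 0 on leaving out DSS replicate 1, and 2 on leaving out replicate 5 of the DSS + GAA group.

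Beside 28.2% lower and 5.96% higher over all tested genes (median -0.25), 4 of 17 macrophage and monocyte markers fell and 0 rose (median -0.53). Their sum in the DSS + GAA group was 2986, 1935, 941 and 849 TPM in replicates 1, 2, 4 and 5, beside 1423 to 1844 TPM in the DSS libraries. Chil3 has the same order in the DSS + GAA group, high in replicates 1 and 2 and low in replicates 4 and 5. That order is not particular to macrophage markers. Hp and Chil1 had it, as did the sums of fibroblast markers (1518, 936, 434 and 419 TPM) and red blood cell genes (63.6, 55.0, 13.0 and 9.88 TPM). In the DSS group the macrophage sum was highest in replicate 4, and Chil3 in replicate 1. Arg1, an enzyme of alternatively activated macrophages, fell from 16.4 to 0.66 TPM (-3.16, limma adjusted p = 0.00460), and Adgre1, which encodes F4/80, was not called (-0.53, limma adjusted p = 0.365). The fallers numbered 2 under each of the 3 other scalings, and 9 on leaving out replicate 1 of the DSS + GAA group. Leaving out DSS replicate 1, 2 or 5 gave 1 faller, and leaving out DSS replicate 4, or replicate 4 or 5 of the other group, gave 2.

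Of 18 colon epithelium markers, 5 rose and 1 fell (median 0.52), with a summed level of 19603 to 26335 TPM in the DSS libraries and 29616 to 32299 TPM in the DSS + GAA libraries. In the DSS group, this sum and Saa1 ordered the libraries alike, with replicate 5 the highest and replicate 1 the lowest. The orders differed in the DSS + GAA group, where the sum was highest in replicate 2 and Saa1 in replicate 1, with replicate 4 the lowest for both. Vil1, villin of the brush border, rose from 429 to 992 TPM (1.23, limma adjusted p = 0.00554), and Epcam was not called (1740 and 2312 TPM, 0.41, limma adjusted p = 0.0668). The risers numbered 11 under trimmed mean scaling and median centring and 2 under quantile normalization. Leaving out DSS replicate 1, or replicate 2 or 4 of the DSS + GAA group, gave 2 risers, and leaving out DSS replicate 2 gave 3.

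Stromal markers were read from lists for fibroblasts and endothelium. Of 12 fibroblast markers 6 fell, 0 rose and 6 were not called (median -1.31), with sums of 1676 to 4839 and 419 to 1518 TPM, and of 12 endothelial markers 9 fell, 0 rose and 3 were not called (median -1.19), with sums of 230 to 353 and 58.2 to 215 TPM. Dcn, the matrix proteoglycan decorin, fell from 1789 to 331 TPM (-2.44, limma adjusted p = 0.00655). On leaving out DSS replicate 1, 2 fibroblast and 2 endothelial markers fell. The counts were 3 and 4 under trimmed mean scaling, under median centring, and on leaving out DSS replicate 4 or either of replicates 4 and 5 of the other group; on leaving out DSS replicate 2, 3 fibroblast markers fell, and under quantile normalization 4 endothelial markers fell. Of 5 tested adipocyte markers 2 fell, among them Fabp4 (406 to 57.5 TPM, -2.89, limma adjusted p = 0.00431), with sums of 426 to 610 and 110 to 232 TPM, while Plin1 and Lep were below 1 TPM in every library. The parts of these cell types in the changes of the 8 genes were not tested.

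Of 10 hepatocyte genes in the deposited values, Alb, Ahsg, Serpina1c and Apoc3 were below 1 TPM in every library, and 2 were tested. The list summed to 172 to 356 TPM in the DSS libraries and to 118 to 156 TPM in the DSS + GAA libraries, most of it Tat. Tat, an enzyme of tyrosine breakdown, fell (221 to 122 TPM, -0.80, limma adjusted p = 0.0239), a call lost under each other scaling and on leaving out replicate 2 (adjusted p = 0.0584) or 4 (0.0594) of the DSS + GAA group. Ttr, the thyroid hormone carrier transthyretin, stood at 5.15 to 13.1 TPM in the DSS libraries and 9.42 to 25.6 TPM in the DSS + GAA libraries and was not called (0.74, limma adjusted p = 0.106). Ttr passed with array weights (0.90, adjusted p = 0.0245) and on leaving out replicate 1 of the DSS + GAA group (0.92, adjusted p = 0.0471). Any part of liver tissue in the levels of the 8 genes was not tested. The squamous epithelium list had 6 of its 9 listed genes below 1 TPM in every library, Krt5 among them, and sums of at most 11.4 TPM in the DSS libraries and at most 8.59 TPM in the DSS + GAA libraries. Exocrine pancreas markers summed to 4.40 to 4.60 TPM in the DSS libraries and to 5.44 to 38.7 TPM in the DSS + GAA libraries, with replicate 2 the highest.

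**Figure D4:**
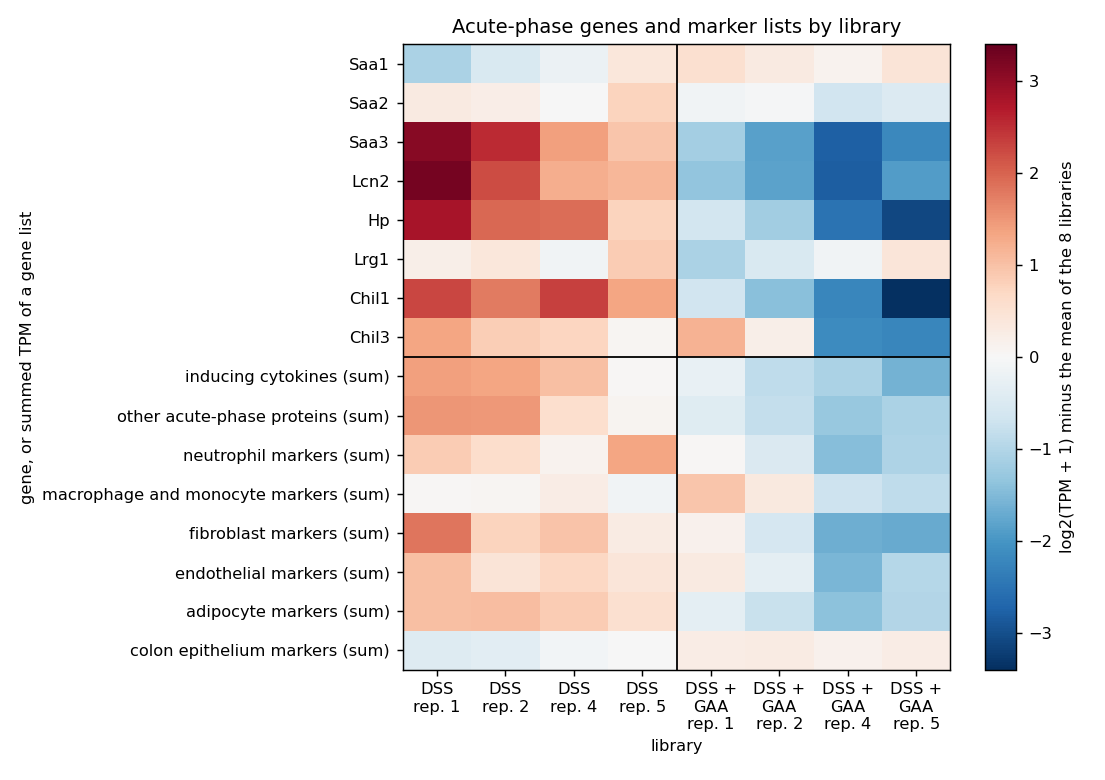
Log2(TPM + 1) of each of the 8 genes, and of the summed TPM of 8 gene lists, minus its mean over the 8 libraries, with libraries in columns (red above the mean, blue below). Saa3, Lcn2, Hp and Chil1 are above their mean in all 4 DSS libraries and below it in all 4 DSS + GAA libraries, while Chil3 and the macrophage sum are high in DSS + GAA replicates 1 and 2 and low in replicates 4 and 5.

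Saa3, Lcn2, Chil1 and Hp kept their direction and their call under all 20 alternatives, with changes of -4.34 to -3.62, -4.20 to -3.49, -4.27 to -3.13 and -4.12 to -3.30 and adjusted p of at most 0.0221, 0.0203, 0.0243 and 0.0245. The plot of changes under each alternative shows the other 4 genes crossing the threshold without changing sign.

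**Figure D5:**
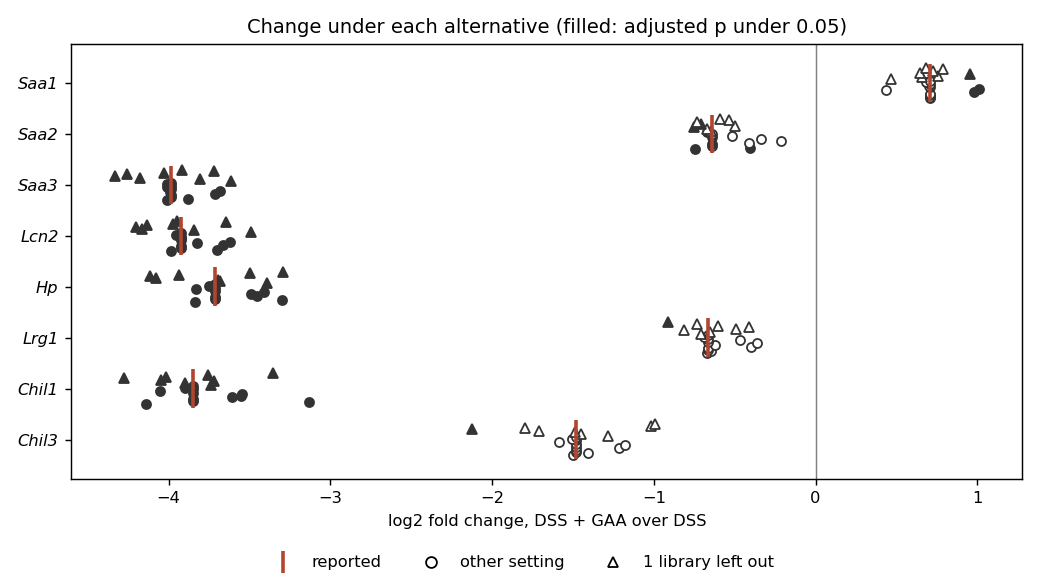
Log2 fold change of DSS + GAA over DSS for each gene under each alternative setting (circles) and with each library left out (triangles), filled where limma's adjusted p is under 0.05, with a bar at the reported value. Saa3, Lcn2, Hp and Chil1 are filled throughout, while Saa1, Saa2, Lrg1 and Chil3 keep their sign with the call gained or lost in some settings.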

How the data were processed

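Messenger RNA of 8 mouse colon libraries was taken with oligo(dT) beads and sequenced in 150-base paired ends, per the labels' protocols. The authors deposited 1 table of TPM values for 18262 genes. Its log2 fold changes, p-values and false discovery rates are the authors' own. The submitters' processing notes name the build mm10 and the tools HISAT2, Bowtie2, Trimmomatic, edgeR, featureCounts, Subread, GATK and SAMtools, without versions or roles. Whether strand was kept is not stated in the labels or notes. The deposited TPM values add up to the same total in every library and keep no depth, so the depth is unknown and no counting interval is given.

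Log2(TPM + 1) values of the 14217 genes with TPM of at least 1 in at least 4 libraries were fitted in limma 3.58.1 (R 4.3.3, statmod 1.5.0) over all 8 libraries by group alone, using robust empirical Bayes with a variance trend, and Benjamini-Hochberg adjustment over the tested genes at 0.05. This scale understates changes of low genes. The 4045 other genes were not tested. The test was also tried on a simulated set of 14217 genes. Where 100 genes were given a shift of 1 log2 unit, 59 were called, and 91 of 100 were called at a shift of 2 units. Of the 14017 genes given no shift, 6 were called. The shifted genes were drawn only from those with a DSS mean above 4 on the log2(TPM + 1) scale. Low genes such as Saa2 were thus given no shift, and the counts give no recovery rate for them. Noise was drawn for each gene on its own, unlike real libraries, where genes can vary together. Promoter sequences are RefSeq's and were found for 7 of the 8 genes; coordinates are those of GENCODE vM21.

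The 8 genes and the 16 further lists were chosen with earlier results of these data known. Genes named from a list are the 3 tested genes with the smallest p, and the first gene of a marker list. Per member, the 2 genes with the most similar profile are named too. Not all that the rule takes are printed. Others (Cfb, Chil4, Mpo, Padi4, Crp, Itih4, Hamp, Orm1, Orm2, Fgg, C3, Saa4) were chosen after their values were seen. So were Ahsg, Serpina1c, Apoc3, Plin1, Lep, Socs1, Hnf4a, Slc40a1, Lgals3, Cd177, Ltf and Csf3r. Some listed genes are not reported here. Alternatives were other pseudocounts (0.1 and 5), filters, scalings, empirical Bayes settings, array weights, removing haemoglobin and mitochondrial genes, a replicate block, sums of near-identical genes, and leaving out each library. No count test was run, as the values are not counts. Deviations from the group means correlated between same-numbered libraries at 0.18, -0.11, 0.15 and -0.03 for replicates 1, 2, 4 and 5, so the numbers were not taken to pair the libraries.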

Additional observations from a re-analysis of the deposited data

Results flagged for a closer look

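Of 152 sets of 4 libraries (76 genes in 2 groups), 8 held a library far from the other 3, with a gap to the nearest above Dixon's 95% critical value, which chance gives in about 1 in 20 sets. No set of Saa1, Saa2, Saa3, Lcn2, Hp, Lrg1, Chil1 or Chil3 did so. In the DSS group Pnpla2, a lipase of adipocytes, stood at 87.1 TPM in replicate 5 beside 59.3 to 62.9 TPM in the others, and Dcn at 3317 TPM in replicate 1 beside 1047 to 1398 TPM. Adipoq, the adipocyte hormone adiponectin, stood at 9.53 TPM in DSS replicate 4 beside 0 to 0.884 TPM, and at 0.442 TPM in DSS + GAA replicate 2, where the others are listed at 0. Cela2a, a pancreatic elastase, stood at 3.34 TPM in DSS replicate 2 beside 4.10 to 4.16 TPM, and at 9.42 TPM in DSS + GAA replicate 2 beside 4.23 to 5.03 TPM. Prss2, a trypsinogen, stood at 0.105 TPM in DSS replicate 4, where the others are listed at 0, and at 3.94 TPM in DSS + GAA replicate 2 beside 0.197 to 0.404 TPM.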

How the results depend on the processing

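Of the 8 genes, 4 to 5 fell under the other settings and 4 to 6 with 1 library left out, and 1 rose (Saa1) under trimmed mean scaling and median centring (0 to 1 with 1 library left out). Saa1 and Saa2 summed gained a call under trimmed mean scaling (0.98) and median centring (1.01), with 0.47 to 0.95 over the fits that leave out 1 library. The replicate block kept the counts at 5 lower and 0 higher, but Saa2 lost its call (-0.64, limma adjusted p = 0.0559) and Chil3 (-1.48, adjusted p = 0.0479) and the sum of Chil3 and Chil4 (-1.48; -2.13 to -0.99 with 1 library left out) gained one, as did Ttr (0.74, adjusted p = 0.0129). Of the 28 pairs, 0 passed with a pseudocount of 5 and 0 to 0 with 1 library left out, where 10 to 15 pairs, not 17, reached the smallest p. Pairs that changed sign, all of them without a call, were Chil1 minus Lcn2 (-0.16 with a pseudocount of 0.1; -0.24 to 0.59 with 1 library left out), Chil1 minus Saa3 (-0.13; -0.12 to 0.56), Lrg1 minus Saa2 (0.073; -0.32 to 0.30), Chil1 minus Hp (0.16 with a pseudocount of 5; -0.34 to 0.028) and Lcn2 minus Saa3 (-0.038 to 0.13). Among 64 named genes besides the 8, of 1265 values 1171 kept direction and call, 63 lost the call, 23 gained it, and 8, all of Krt15, changed sign (0.0018 with a pseudocount of 5, 0.16 trimmed mean, 0.34 quantile, 0.26 median, 0.23 array weights; -0.34 to 0.40 with 1 library left out). The cause of these changes was not tested. Depth is unknown, the split of reads between Saa1 and Saa2 is uncertain, and 4 libraries per group limit the precision.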
